A study of Rattus norvegicus with 12 samples.

Results

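The RNA helicases described here are the genes of the rat whose symbol on the array begins with Ddx or Dhx followed by a number, with the RIG-I-like receptor genes Ddx58 and Dhx58 left out. The rule gave 46 genes of 14217 with a symbol of their own on the array, and 68 probe sets of 31042. A probe set is the group of short probes that reads 1 transcript, and for each gene the probe set with the highest mean over all arrays was used. The rule picks genes by name, but the family was chosen with earlier results of these data known. All 46 were above the background of every array, where background is the level of probe sets for spike RNAs that had not been added.

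Mesenteric lymph nodes, which drain the gut, were taken from 12 Wistar pups at day 21, and each was hybridized to an array of its own. In group A the dam ate a diet with 1% conjugated linoleic acid (CLA) for 2 weeks of gestation and 3 weeks of suckling, so the pups received CLA in milk. In group B the dam ate the 1% CLA diet for 2 weeks of gestation and a standard diet afterwards, and the pups were given CLA by gavage for 3 weeks. Group C had no CLA in gestation and gavage for 3 weeks of suckling, while group D, the reference, had a standard diet throughout and no CLA. Each group holds 3 arrays, which the study's methods describe as 3 pups taken at random from 10. The methods also state that pups were kept in litters of 10 per dam, so a group may have been 1 litter, and dam and diet could then not be told apart. The p-values measure the spread between these pups. Levels are log2 signal intensities brought to 1 common distribution over the arrays, and 1 unit is a doubling.

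DDX and DHX proteins are motor enzymes that use ATP to open RNA duplexes or to strip proteins from RNA. DDX members mostly pry apart short helices locally, and DHX members can travel along the strand. Between them they accompany an RNA through transcription, splicing, export, translation, ribosome assembly and decay, and in lymphocytes, as in other dividing cells, most are expressed throughout.

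The promoters of 42 of the 46 genes were found in the RefSeq table of rat assembly GRCr8, in windows of 250 bases before and 50 after the start. The 250 bases before the start are shown 5′ to 3′ for 4 genes on which the results turn, namely Ddx1, Dhx36 and Ddx46, which were lower in group A, and Dhx34, which was higher. Capitals mark the letters CCGGAAG of an ETS motif, the CCAAT box and the GC box GGGCGG, each on either strand.
Ddx1, chr6:41756237-41756486, minus strand: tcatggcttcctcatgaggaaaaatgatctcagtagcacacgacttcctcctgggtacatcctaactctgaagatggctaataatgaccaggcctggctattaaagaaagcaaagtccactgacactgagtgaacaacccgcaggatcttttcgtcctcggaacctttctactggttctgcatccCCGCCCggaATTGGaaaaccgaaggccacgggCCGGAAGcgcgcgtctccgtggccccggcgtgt
Dhx36, chr2:149044192-149044441, minus strand: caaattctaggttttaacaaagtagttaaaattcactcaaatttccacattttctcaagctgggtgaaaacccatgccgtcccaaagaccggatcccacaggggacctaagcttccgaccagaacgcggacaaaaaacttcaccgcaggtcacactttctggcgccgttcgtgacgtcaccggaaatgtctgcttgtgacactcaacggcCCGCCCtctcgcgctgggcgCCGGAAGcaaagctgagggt
Ddx46, chr17:8993604-8993853, minus strand: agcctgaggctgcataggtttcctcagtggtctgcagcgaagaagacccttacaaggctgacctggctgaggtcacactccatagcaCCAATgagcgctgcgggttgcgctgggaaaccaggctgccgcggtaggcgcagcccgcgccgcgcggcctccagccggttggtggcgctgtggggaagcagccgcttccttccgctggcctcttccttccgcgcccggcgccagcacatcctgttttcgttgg
Dhx34, chr1:86033294-86033543, minus strand: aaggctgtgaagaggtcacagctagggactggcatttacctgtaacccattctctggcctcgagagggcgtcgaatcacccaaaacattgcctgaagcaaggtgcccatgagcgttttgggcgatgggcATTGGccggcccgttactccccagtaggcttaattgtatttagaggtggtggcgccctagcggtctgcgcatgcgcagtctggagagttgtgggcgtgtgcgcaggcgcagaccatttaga

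The ETS letters CCGGAAG were in 19 of the 42 windows (45.2%) and in 9.2% of 27457 promoters in all. They were in 5 of 15 windows of genes lower in group A than in group D, in 2 of 3 of genes higher, and in 12 of 24 of the rest. In Dhx34 the ETS match lay in the part of the window after the start, which is not printed. The GC box was in 57.1% of the helicase windows and 34.9% of all, the CCAAT box in 50.0% and 37.7%, and the E-box CACGTG in 11.9% and 6.7%. Letters of neighbouring motifs may overlap at their ends. The letters TATAAA were found in 1 helicase window (2.4%), that of Ddx60, and in 14.3% of all. The median GC content was 57.0% in the helicase windows and 52.3% in all. These shares describe the letters and were not tested.

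The arrays showed lymphoid tissue, with all 8 lymphocyte markers measured above background in every array. 1 array stood apart. Replicate 3 of group D had a mean correlation of 0.931 with the arrays of group B and 0.930 with those of group C, against 0.896 with the other arrays of its own group. Its summed smooth muscle signal was 997 on the linear scale, against 6990 and 7120 in the other D arrays, 1560 to 1700 in the A arrays, 895 to 1220 in the B arrays and 778 to 988 in the C arrays. In 35 of the 46 helicases it lay nearer to the mean of groups B and C than to the mean of the other D arrays, 76.1% beside 71.2% of all genes. Comparisons with group D are therefore given with and without it. It was picked out for its likeness to groups B and C in these data. Leaving it out thus favours differences of those groups from group D. In a whole node fewer cells of a type and less RNA per cell cannot be told apart.

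Group A stood below the reference in many of the helicases. Of the 46, 17 were lower than in group D at an adjusted p under 0.05 and 3 were higher, by limma with adjustment over all probe sets. Among all genes 12.0% were lower and 16.0% were higher, beside 37.0% and 6.52% of the helicases, and the difference of these shares was not tested. The median difference of the helicases was -0.315 and that of all genes 0.154. On values as deposited, without scaling between arrays, 15 were lower (background 9.64%) and 0 higher (background 1.84%), with medians of -0.465 and -0.018. All 3 arrays of group A lay below all 3 of group D in 21 helicases (background 15.9%), and above in 7 (background 26.9%). 10 helicases were lower by at least 2-fold (background 5.56%) and 1, Dhx34, was higher by that much (background 2.63%). Without replicate 3 of group D, 17 were lower (background 13.4%) and 2 higher (background 14.6%), and those higher were Dhx34 and Ddx60. The count of higher helicases fell to 1 when replicate 1, 2 or 3 of group A was left out. It did so too without replicate 3 of group B, replicate 2 of group C or replicate 2 of group D. The share of all genes was not computed for these.

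**Figure D1:**
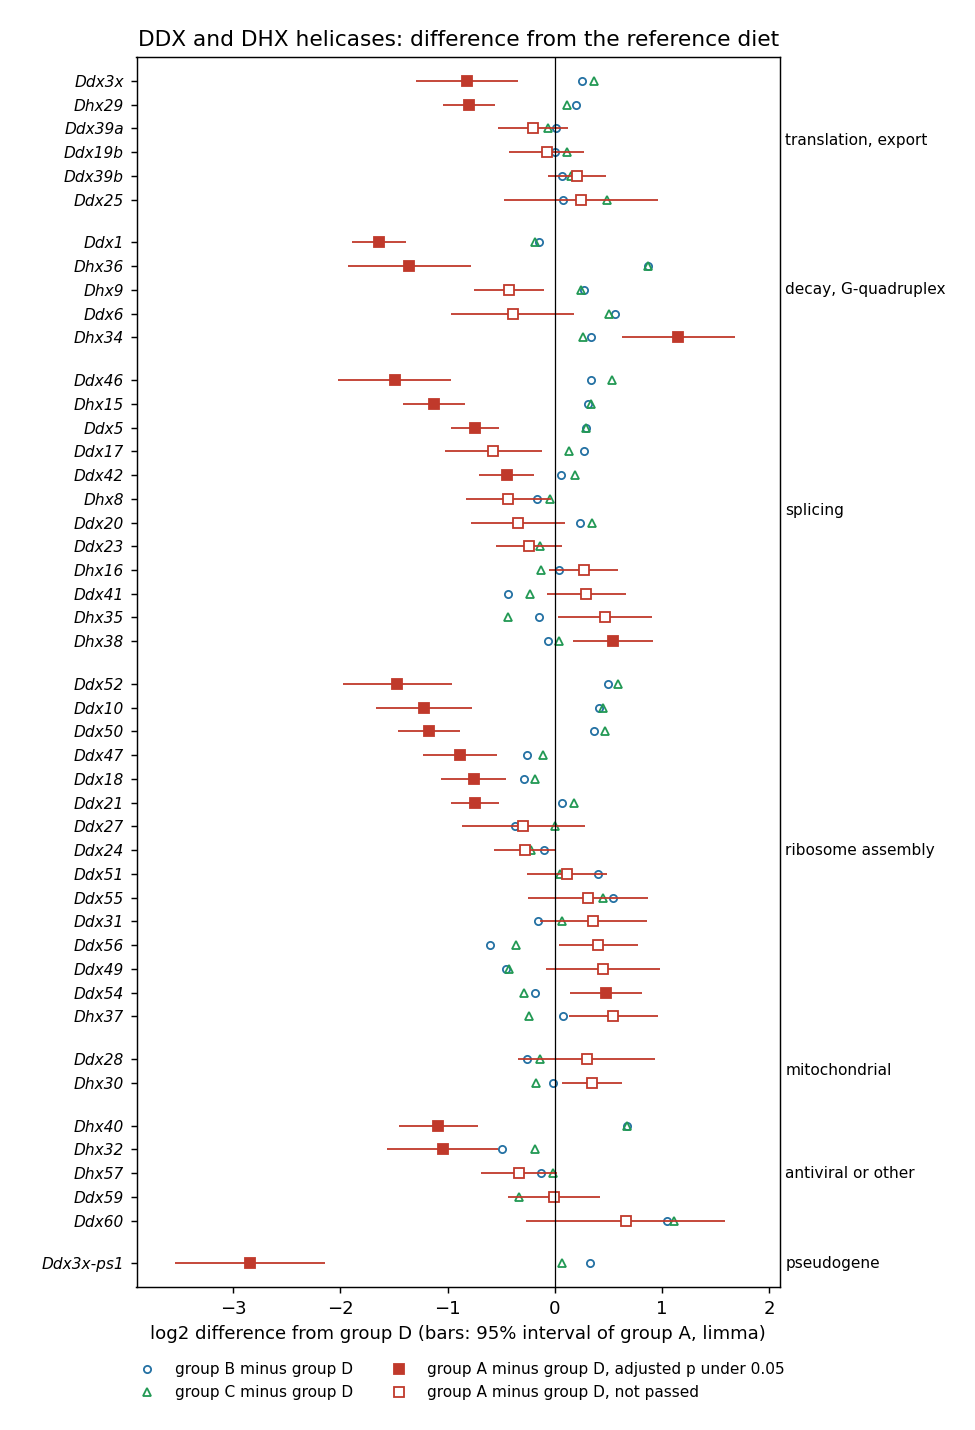
Log2 difference from group D of each of the 46 helicases, ordered by role. Squares show group A with 95% intervals from limma, filled at an adjusted p under 0.05, and open circles and triangles show groups B and C. The filled squares lie left of zero for 17 genes and right of it for Ddx54, Dhx34 and Dhx38.

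Among the helicases of translation and mRNA export, 2 of 6 were lower in group A (background 12.0%) and none was higher (background 16.0%). Ddx3x, which helps ribosomes start on mRNAs with structured leaders, read 9.42, 9.75 and 10.12 in the A arrays, 10.70, 10.84 and 10.97 in the B arrays, 10.80, 10.97 and 11.06 in the C arrays and 10.27, 10.33 and 11.14 in the D arrays. The A arrays lay below all others, and replicate 3 was the highest D array. The difference from group D was -0.82 (SE 0.22, adjusted p = 0.0185), and it did not pass without replicate 1 (adjusted p = 0.0807) or replicate 2 of group A (adjusted p = 0.059). A second Ddx3x probe set read 3.80, 3.77 and 3.62 in group A and 6.84, 7.00 and 7.51 in group D, a difference of -3.38 (SE 0.29, adjusted p = 1.05e-05). Both probe sets were lower, by unequal amounts. Dhx29, which works on the small ribosomal subunit during scanning, was lower by -0.80 (SE 0.11, adjusted p = 0.000389). The export helicases Ddx39a, Ddx39b and Ddx19b and the germ cell helicase Ddx25 did not pass, with differences of -0.20 to 0.24.

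Ddx3x-ps1 is annotated as a pseudogene of Ddx3x, so its probes may also read Ddx3x and its values are uncertain. It read 5.66, 5.14 and 5.84 in the A arrays, 8.41, 8.90 and 8.82 in the B arrays, 9.0, 8.08 and 8.30 in the C arrays and 7.98, 7.99 and 9.19 in the D arrays. No A array came near the others, and the difference from group D of -2.84 (SE 0.33, 7.17-fold, adjusted p = 9.32e-05) was the largest of the 46.

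Helicases of mRNA decay and G-quadruplex unwinding moved both ways. Ddx1, a component of the tRNA ligase complex that also travels in RNA granules, read 7.41, 7.20 and 7.25 in the A arrays, 8.76, 8.75 and 8.83 in the B arrays, 8.83, 8.67 and 8.72 in the C arrays and 8.99, 9.09 and 8.70 in the D arrays. The groups other than A ran together, and group A was 3.11-fold below group D (difference -1.64, SE 0.12, adjusted p = 2.97e-06). Dhx36 opens G-quadruplexes, the stacked structures of guanine-rich RNA and DNA. It read 6.40, 6.54 and 6.69 in the A arrays, 8.77, 8.81 and 8.73 in the B arrays, 8.73, 8.51 and 9.07 in the C arrays and 7.38, 7.64 and 8.69 in the D arrays. Group A was the lowest and replicates 1 and 2 of group D lay between it and the rest. The difference of group A from group D was -1.36 (SE 0.26, adjusted p = 0.00319), and the gene had 5 probe sets with differences of -2.99 to -0.17, of which 3 passed. Dhx34, which takes part in nonsense-mediated decay, went the other way. It read 6.22, 6.03 and 5.99 in the A arrays, 5.32, 5.20 and 5.31 in the B arrays, 4.84, 5.41 and 5.33 in the C arrays and 4.50, 5.13 and 5.17 in the D arrays. All A arrays were above all others, by 1.15 against group D (SE 0.24, 2.22-fold, adjusted p = 0.00512). The P-body helicase Ddx6 (-0.39) and Dhx9 (-0.43), which unwinds double-stranded RNA, did not pass.

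**Figure D2:**
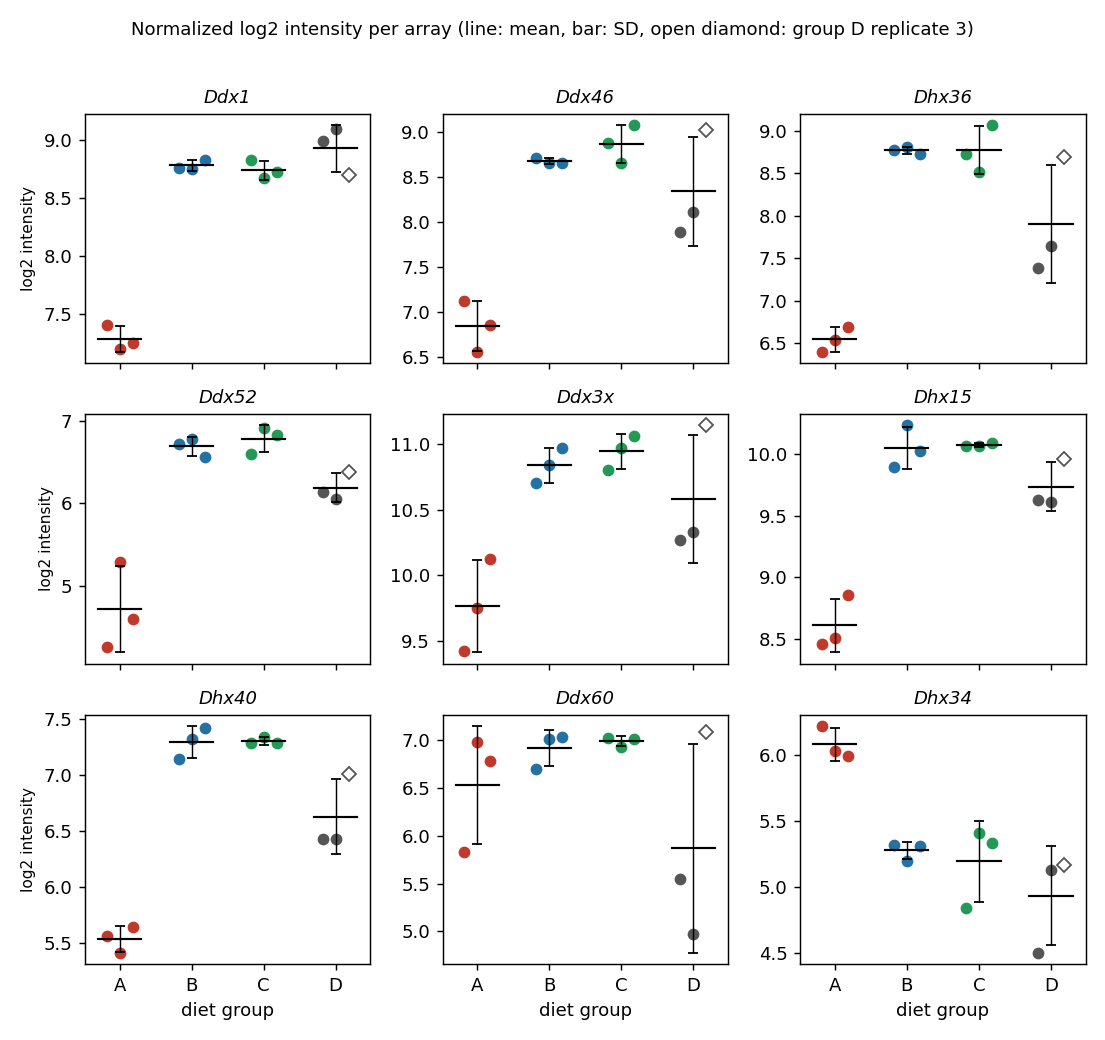
Normalized log2 intensity of 9 helicases in each array by diet group, with the mean as a line, the SD of 3 arrays as a bar, and replicate 3 of group D as an open diamond. Axes differ between panels and do not start at 0. In Ddx46, Dhx36, Ddx3x and Ddx60 the open diamond lies with groups B and C.

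Of 12 helicases listed under splicing 4 were lower in group A than in group D (background 12.0%) and 1 was higher (background 16.0%). Ddx46, which acts as the branch site is first recognized, read 7.12, 6.56 and 6.86 in the A arrays, 8.72, 8.66 and 8.66 in the B arrays, 8.88, 8.66 and 9.08 in the C arrays and 7.89, 8.11 and 9.03 in the D arrays. Group A was lowest with no overlap (difference -1.49, SE 0.24, adjusted p = 0.00105), and D replicate 3 sat among the gavage groups. Dhx15, which takes spent spliceosomes apart, read 8.46, 8.51 and 8.86 in the A arrays, 9.89, 10.23 and 10.02 in the B arrays, 10.06, 10.06 and 10.09 in the C arrays and 9.63, 9.61 and 9.96 in the D arrays. It was 2.18-fold lower in group A (difference -1.13, SE 0.14, adjusted p = 0.000131). Ddx5, a splicing factor and partner of transcription factors, read 10.28, 10.15 and 10.39 in the A arrays, 11.34, 11.31 and 11.28 in the B arrays, 11.39, 11.19 and 11.37 in the C arrays and 10.93, 10.95 and 11.18 in the D arrays. The arrays of groups A and D did not overlap, and the difference was -0.74 (SE 0.10, adjusted p = 0.000386). A second Ddx5 probe set was lower too (-1.02, adjusted p = 0.000694). Ddx42, which associates with the U2 particle, read 7.40, 7.58 and 7.57 in the A arrays, 8.02, 8.0 and 8.03 in the B arrays, 7.98, 8.26 and 8.22 in the C arrays and 7.79, 8.04 and 8.06 in the D arrays.

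The Ddx42 difference of -0.45 (SE 0.12, adjusted p = 0.0174) was the smallest of the 17, and it did not pass without A replicate 1 (adjusted p = 0.0622) or D replicate 2 (adjusted p = 0.057). Its second probe set read 6.19, 6.93 and 6.97 in the A arrays, 7.60, 7.59 and 7.50 in the B arrays, 7.62, 7.57 and 7.73 in the C arrays and 5.27, 5.87 and 7.71 in the D arrays. That probe set gave 0.41 against group D (adjusted p = 0.595), so the probe sets of Ddx42 disagreed in sign. Dhx38, needed for the second step of splicing, was higher in group A by 0.54 (SE 0.17, adjusted p = 0.0406), but not without D replicate 3 (0.48, adjusted p = 0.074). The 7 others, Ddx17, Dhx8, Ddx20, Ddx23, Dhx16, Ddx41 and Dhx35, did not pass on their brightest probe set. They ranged from -0.57 for Ddx17, the close relative of Ddx5, to 0.47 for Dhx35. A second Ddx17 probe set was lower, by -1.27 against group D (SE 0.37, adjusted p = 0.0278). Like those of Ddx42, the probe sets of Dhx8, which frees finished mRNA from the spliceosome, differed in sign. They gave -0.43 and 0.24, and neither passed.

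Ribosome assembly was the largest role, with 15 helicases, of which 6 were lower in group A (background 12.0%) and 1 was higher (background 16.0%). Ddx52, which acts early on the small subunit, read 4.27, 5.29 and 4.60 in the A arrays, 6.72, 6.78 and 6.56 in the B arrays, 6.60, 6.91 and 6.83 in the C arrays and 6.14, 6.05 and 6.38 in the D arrays. The groups were ordered A, D and then B and C without an array of A reaching D (difference -1.47, SE 0.23, adjusted p = 0.000903). Ddx10, a nucleolar helicase of pre-rRNA processing, read 4.90, 5.61 and 5.15 in the A arrays, 6.97, 6.95 and 6.63 in the B arrays, 6.86, 6.89 and 6.91 in the C arrays and 6.17, 6.41 and 6.74 in the D arrays. Again every A array was below every D array, 2.33-fold in the mean (difference -1.22, SE 0.20, adjusted p = 0.00126).

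Ddx21 and Ddx50 are closely related nucleolar proteins, and Ddx21 also takes part in rRNA transcription. Ddx50 read 6.39, 6.41 and 6.57 in the A arrays, 8.03, 8.02 and 7.95 in the B arrays, 8.06, 8.06 and 8.18 in the C arrays and 7.48, 7.48 and 7.93 in the D arrays, with a difference of -1.17 between groups A and D (SE 0.13, adjusted p = 9.35e-05). Ddx21 read 8.60, 8.70 and 8.72 in the A arrays, 9.66, 9.44 and 9.37 in the B arrays, 9.60, 9.48 and 9.71 in the C arrays and 9.46, 9.35 and 9.45 in the D arrays, with a difference of -0.74 (SE 0.10, adjusted p = 0.000388). In both genes group A was clear of the other groups. A second Ddx21 probe set gave -1.84 (adjusted p = 8.52e-06), while the remaining Ddx50 probe sets gave -0.10 and 0.61, neither of which passed and each of which was at or below background in 1 array. The mean over all Ddx50 probe sets gave -0.22, which did not pass. Ddx47 (-0.88) and Ddx18 (-0.76), both helicases of pre-rRNA cleavage, were lower as well. Ddx54 was higher by 0.48 (SE 0.15, adjusted p = 0.0441) and a second probe set by 0.67 (adjusted p = 0.0196), but without D replicate 3 the first gave 0.34 (adjusted p = 0.107). The other 8 of the role, Ddx24, Ddx27, Ddx31, Ddx49, Ddx51, Ddx55, Ddx56 and Dhx37, ranged from -0.29 to 0.55.

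The mitochondrial helicases Ddx28 and Dhx30 did not pass, at 0.30 and 0.34. A second probe set of Ddx28, at or below background in 1 array, gave -1.04 (adjusted p = 0.375). In the remaining group Dhx40 and Dhx32 were lower. Dhx40, whose function is little known, read 5.56, 5.41 and 5.64 in the A arrays, 7.14, 7.32 and 7.42 in the B arrays, 7.28, 7.34 and 7.28 in the C arrays and 6.43, 6.43 and 7.01 in the D arrays. The lowest arrays were those of group A, and the difference from group D was -1.08 (SE 0.17, adjusted p = 0.000781). Dhx32 gave -1.05 (adjusted p = 0.00817), and Dhx57 and Ddx59 did not pass, at -0.34 and 0.00 (95% interval of Ddx59 -0.43 to 0.43).

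Ddx60, an interferon-induced helicase of antiviral sensing, was unlike the others. It read 5.83, 6.98 and 6.78 in the A arrays, 6.70, 7.01 and 7.03 in the B arrays, 7.02, 6.93 and 7.01 in the C arrays and 5.55, 4.97 and 7.08 in the D arrays. D replicates 1 and 2 were the lowest arrays and D replicate 3 the highest. With all arrays no difference from the reference passed, with 0.66 for A pups, 1.04 for B pups and 1.11 for C pups. Without D replicate 3 the differences were 1.27 (adjusted p = 0.00755), 1.65 (adjusted p = 0.00193) and 1.72 (adjusted p = 0.00135).

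**Figure D3:**
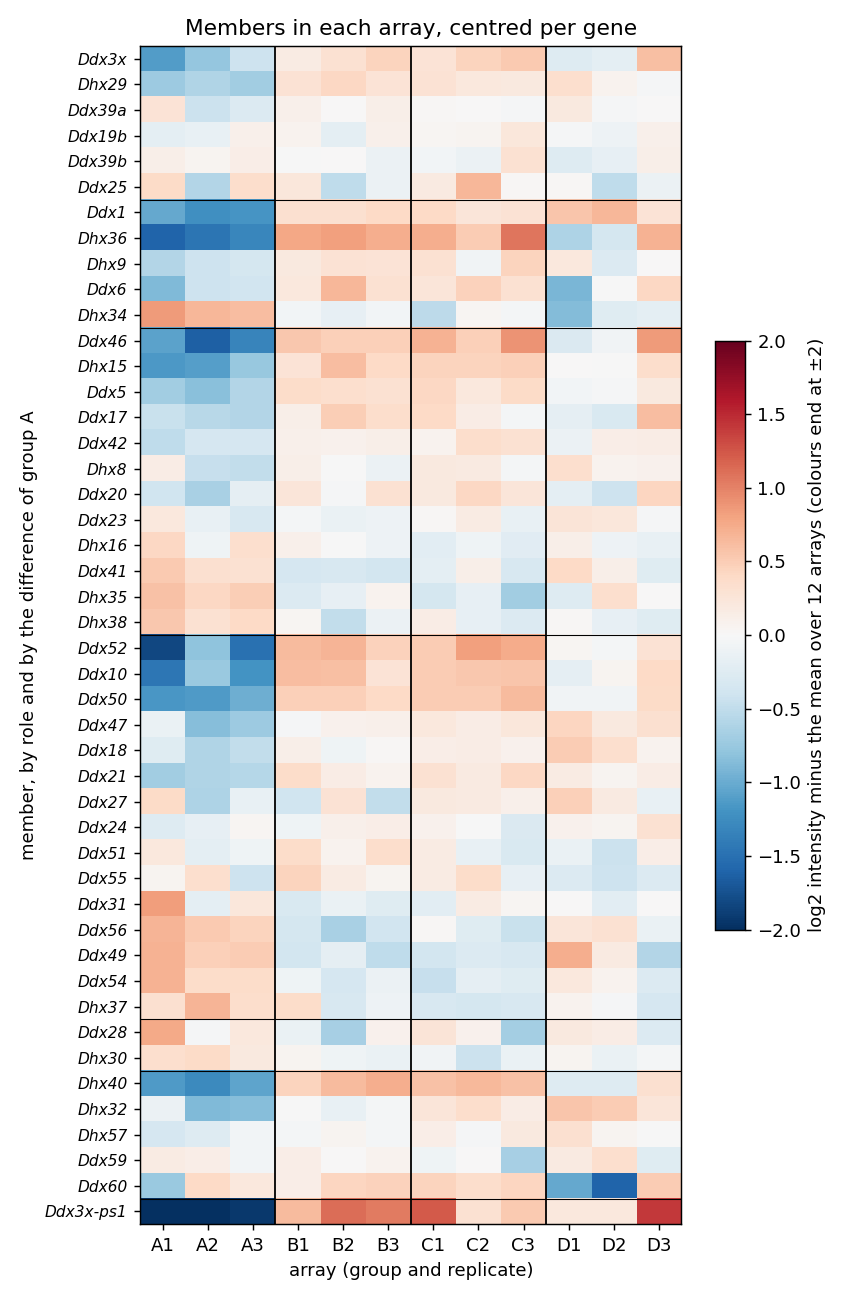
Log2 intensity of each helicase in each array minus its mean over 12 arrays, with arrays in columns. Genes are in rows by role and, within a role, by the difference of group A from group D. Blue is below and red above the mean, and colours end at 2 units. The order of the rows places blue in the upper and red in the lower rows of the A columns in most roles. The D3 column resembles the B and C columns in Dhx36, Ddx46 and Ddx60.

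Of the 46 helicases 16 had several probe sets. In 12 of the 16 all probe sets had the same sign between groups A and D, in 5 all were lower at an adjusted p under 0.05, and in none did probe sets pass in opposite directions. The probe sets with opposite signs were those of Ddx28, Ddx42, Ddx50 and Dhx8. Where on the transcript each probe set lies was not analysed here.

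**Figure D4:**
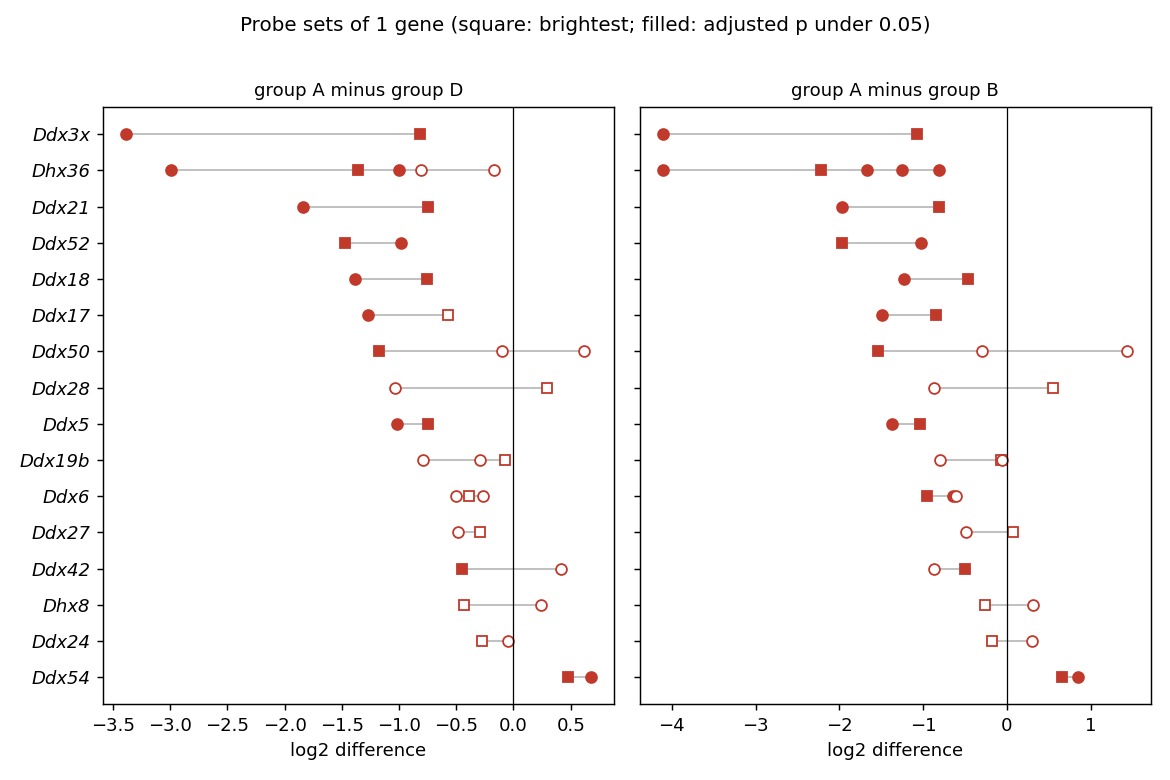
Log2 differences for each probe set of the 16 helicases with several, for group A minus group D on the left and group A minus group B on the right. Squares are the brightest probe set and filled marks passed at an adjusted p under 0.05. The probe sets of Ddx3x and Dhx36 spread widely, from -3.38 to -0.82 and from -2.99 to -0.17 on the left.

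Some values of RNA quality were highest in arrays of group A, with overlap, and summed neutrophil and plasma cell markers stood apart in group A. The ratio of 3′ to 5′ signal, which rises when RNA is broken, ran from 1.21 to 1.53 for GAPDH in the A arrays, against 1.10 to 1.12 (B), 1.10 to 1.28 (C) and 1.06 to 1.22 (D). For hexokinase it ran from 2.84 to 4.96 in the A arrays, against 1.62 to 3.24 (B), 1.82 to 2.62 (C) and 1.84 to 2.53 (D). The A arrays overlapped with groups C and D for GAPDH and with group B for hexokinase. For actin all groups overlapped (1.37 to 1.79, 1.44 to 1.79, 1.60 to 1.74 and 1.30 to 1.91). Summed neutrophil markers ran from 327 to 474 in the A arrays, against 87.0 to 121 (B), 97.2 to 250 (C) and 83.2 to 103 (D), with S100a8 and Np4 not above background in all arrays. Summed plasma cell markers, all 5 above background, ran from 2080 to 2210 in the A arrays, against 1240 to 1540 (B), 1240 to 1880 (C) and 1150 to 1740 (D). Summed lymphocyte markers were 12000 to 13100, 13100 to 13400, 13000 to 13800 and 11200 to 13200 in groups A to D, but single markers differed. Ptprc, the pan-leukocyte antigen CD45, was lower in group A by -1.03 against group D (adjusted p = 0.00486) and -1.61 against group B (adjusted p = 0.000173). Ms4a1, the B cell antigen CD20, gave -0.34 (adjusted p = 0.0405) and -0.84 (adjusted p = 0.000125). The T cell genes Cd2 and Cd3e were higher than in group B, by 0.43 (adjusted p = 0.0129) and 0.52 (adjusted p = 0.00977). Cd3d (0.26) and Cd3g (-0.13), also T cell genes, did not pass there, and none of these T cell genes passed against group D. Cd79b and Cd74 passed in neither comparison. Mesothelium (305 to 337, 237 to 292, 199 to 266 and 496 to 889, 3 of 5 markers above background in all arrays) and enteric neuron markers (57.3 to 92.8, 33.2 to 63.7, 53.7 to 56.7 and 62.3 to 427, 2 of 5) had their highest arrays in group D. Adipocyte markers (2830 to 3580, 3200 to 4920, 2700 to 3840 and 3320 to 4770, 4 of 5) overlapped between the groups. The part of RNA quality and of these cells in the helicase differences was not tested.

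Groups A and B had CLA for the same 5 weeks, by milk or by gavage in suckling, and the helicases of the 2 groups lay far apart. The methods state that litters were separated from their dams before gavage, and describe no gavage in groups A and D. Route, handling and the dam's diet in suckling can therefore not be told apart. The same holds for CLA and handling in groups B and C against group D. Of the 46, 20 were lower in group A than in group B and 8 were higher, with a background of 15.0% lower and 26.9% higher among all genes. The median difference was -0.276 in the helicases and 0.303 in all genes. On values as deposited 9 were lower (background 6.06%) and 10 higher (background 31.7%), with medians of -0.008 and 0.633. The counts moved with those of all genes, and the median of the helicases minus that of all genes was -0.579 after normalization and -0.641 as deposited. Without A replicate 1 or B replicate 2 the helicases higher in group A numbered 4, and without B replicate 3 they numbered 5. The share of all genes was not computed for these. Ddx3x-ps1 gave -3.17 (SE 0.33, adjusted p = 2.65e-05), Dhx36 gave -2.22 (SE 0.26, adjusted p = 7.53e-05) and Ddx52 gave -1.97 (SE 0.23, adjusted p = 7.67e-05). All 5 probe sets of Dhx36 were lower, from -4.10 to -0.82, and the second probe set of Ddx3x gave -4.11. In these genes the arrays of groups A and B listed above were far from overlapping. The splicing helicases Ddx46 (-1.83) and Dhx15 (-1.44), the ribosome assembly helicases Ddx10 (-1.63) and Ddx50 (-1.54), and Dhx40 (-1.76), Ddx1 (-1.49), Ddx3x (-1.07) and Ddx5 (-1.03) followed. Some helicases passed against group B but not against group D on their brightest probe set. Those lower were Ddx17, Ddx20, Ddx6 and Dhx9, and those higher were Ddx41, Ddx49, Ddx56, Dhx30 and Dhx35. Dhx32 passed against group D but not against group B (-0.56, adjusted p = 0.0977). The remaining Ddx50 probe sets gave 1.44 and -0.29 against group B, and neither passed. This comparison shares the arrays of group A with the one above. Ddx56, a nucleolar helicase of the large subunit, rose most (1.01, SE 0.17, 2.02-fold, adjusted p = 0.000799), with 7.35, 7.19 and 7.11 in group A and 6.32, 6.02 and 6.28 in group B.

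In group B no helicase differed from group D at an adjusted p under 0.05 by limma, against a background of 0.0141% lower and 0.00703% higher. At an unadjusted p under 0.05, 2 were lower (Ddx41 and Ddx56, background 10.5%) and 7 higher (Ddx5, Ddx50, Ddx51, Ddx60, Dhx15, Dhx36 and Dhx40, background 6.47%). The smallest adjusted p was 0.178, for Dhx40 at 0.67. The median was 0.06 in the helicases and -0.113 in all genes. On values as deposited both medians were below 0, at -0.512 and -0.648. The widest 95% interval, that of Ddx60, reached 0.927 on either side of the estimate. The intervals are not adjusted for the number of tests, and Ddx60 did not pass at 1.04. Differences of that size could thus have been missed, and the limit differs between genes.

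Group C was compared with the same reference arrays as group B. No helicase passed by limma, against a background of 0.0352% lower and 0.00703% higher. At an unadjusted p under 0.05 none was lower (background 12.2%) and 9 were higher (background 7.42%), namely Ddx10, Ddx46, Ddx5, Ddx50, Ddx52, Ddx60, Dhx15, Dhx36 and Dhx40. The smallest adjusted p was 0.146, for Dhx40 at 0.68, and the medians were 0.068 in the helicases and -0.123 in all genes. As deposited the medians were -0.605 and -0.796, and 14 helicases were lower (background 35.0%) and 0 higher (background 0.0352%).

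The outcome in both gavage groups rested on D replicate 3. Without it 11 helicases were higher in group B than in group D (background 7.15%) and 4 were lower (background 12.8%), while in group C 10 were higher (background 8.04%) and 2 lower (background 15.0%). Those higher in group B were Ddx17, Ddx3x, Ddx46, Ddx5, Ddx50, Ddx51, Ddx6, Ddx60, Dhx15, Dhx36 and Dhx40, and those lower were Ddx18, Ddx41, Ddx49 and Ddx56. Those higher in group C were Ddx20, Ddx3x, Ddx46, Ddx5, Ddx50, Ddx6, Ddx60, Dhx15, Dhx36 and Dhx40, and those lower were Ddx49 and Ddx56. Dhx36 gave 1.26 in group B (SE 0.15, adjusted p = 0.00019) and 1.26 in group C (SE 0.15, adjusted p = 0.000169), and Dhx40 gave 0.86 (adjusted p = 0.000877) and 0.87 (adjusted p = 0.00076). These values compare 3 arrays with 2, and the array was left out because it lay near groups B and C in these data. Leaving it out tends to move the mean of group D away from those groups, so the choice favours these calls.

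**Figure D5:**
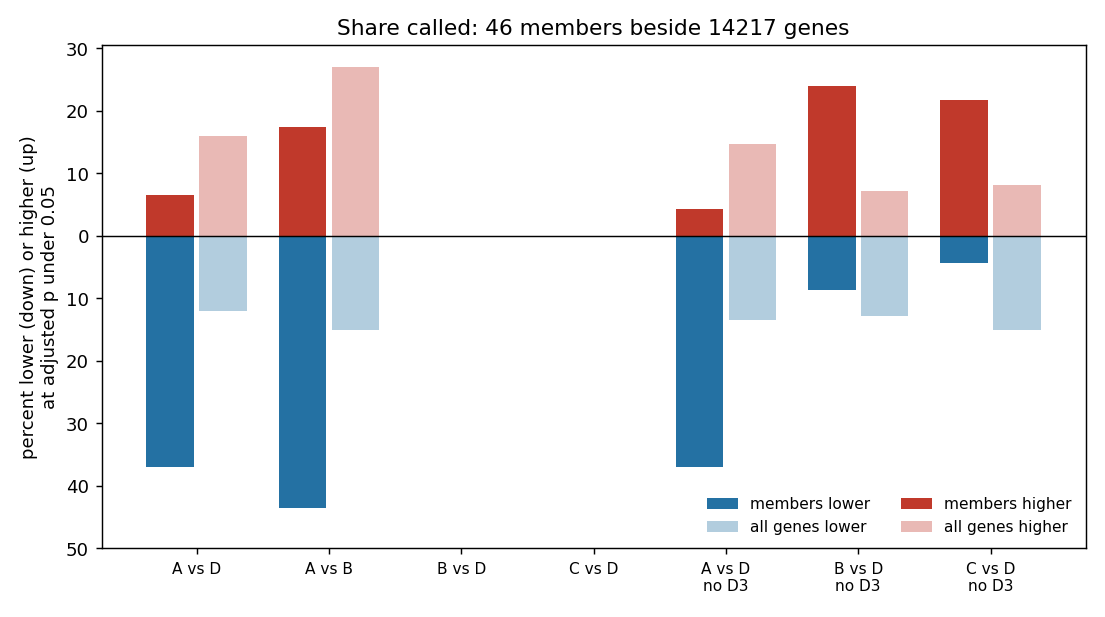
Percent of the 46 helicases and of 14217 genes that were lower (bars down) or higher (bars up) at an adjusted p under 0.05, by comparison, with bars from 0. The bars of B vs D and C vs D are too small to see, and without D replicate 3 the helicases reach 24% higher in group B and 22% in group C.

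Between groups B and C, which differ in CLA during gestation, no helicase passed by limma and the background was 0% in either direction. None passed at an unadjusted p under 0.05 either (background 1.93% lower and 1.96% higher). The differences ran from -0.41 for Ddx25 (95% interval -1.13 to 0.30) to 0.35 for Ddx51 (-0.02 to 0.73), with a median of -0.053 in the helicases and 0.005 in all genes. Dhx36 gave -0.01 (-0.58 to 0.57) and Ddx1 0.04 (-0.21 to 0.29).

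RNA helicases with other names and the proteins that work with helicases give the surroundings of these results. Of 14 other RNA helicases 5 were lower in group A than in group D (Dicer1, Eif4a1, Eif4a2, Mtrex and Snrnp200) and 4 were higher (Helz2, Mov10, Skic2 and Znfx1). Among all genes 12.0% were lower and 16.0% higher. Dicer1, which cuts microRNA precursors, gave -1.12 (adjusted p = 0.00825), Mtrex, the helicase of the nuclear exosome, -0.92 (adjusted p = 0.000252), and Skic2, that of the cytoplasmic exosome, 0.91 (adjusted p = 0.018). Eif4a2, a translation initiation helicase, gave -0.86 (adjusted p = 0.00476), and Snrnp200, which unwinds the U4 and U6 RNAs in the spliceosome, -0.79 (adjusted p = 0.00329). Of 40 helicase cofactors 14 were lower (background 12.0%) and 3 higher (background 16.0%). The largest differences were those of Cwc22 (-2.15), a splicing partner of Eif4a3, Gpatch11 (-1.79), Thoc1 (-1.44) of the THO export complex, Pdcd4 (-1.37), which holds back Eif4a, and Rtraf (-1.35), which sits with Ddx1 in the tRNA ligase complex. The median was -0.025 in the other helicases and -0.081 in the cofactors. Against group B, 5 other helicases were lower and 3 higher in group A, and 13 cofactors were lower and 10 higher. The background there was 15.0% lower and 26.9% higher among all genes. In group B against group D none of either list passed (background 0.0141% lower and 0.00703% higher).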

How the data were processed

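Signals of 31099 probe sets on 12 Affymetrix whole-genome rat arrays were used, all columns belonging to a sample. The authors deposited MAS5 signal intensity values on a linear scale, not scaled between arrays (medians 19.3 to 38.5). The 30 zeros took the smallest positive value, log2 values were quantile normalized over all arrays, and intensities under 1 were raised to 1. After 57 control probe sets were left out, 31042 were tested with limma 3.58.1 in R 4.3.3, as a two-sided moderated test with 1 mean per group, a trend of the variance over the level, and Benjamini-Hochberg adjustment over all probe sets in each comparison. Fold changes are 2 to the power of log2 differences. Background was set per array at the 95th percentile of the 27 probe sets whose spikes had not been added. Fits were tested on simulated data.

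Symbols came from the platform annotation, in which 20826 probe sets carry 1 symbol, 436 several and 9780 none. All 46 genes matched a RefSeq gene number, and 3 probe sets shared by Ddx19b and Ddx19a were not used. RefSeq had no promoter entry for Ddx24, Ddx3x-ps1, Ddx52 and Ddx6. Each gene's first promoter entry was searched.

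The genes, role groups, other helicases, cofactors and marker lists were chosen with earlier results of these data known. Values in every array are given for the 10 largest differences past an adjusted p of 0.05 in group A against group D and against group B, for any gene past it in the other comparisons, and for genes in the paper's additional files. Genes whose probe sets differ in direction between groups A and D are given with all of them. The number of arrays limits the precision, and with 3 against 3 an exact permutation p cannot go below 0.1. Replicate numbers were not used to pair the arrays in the main fit. Results were recomputed with a replicate block, with each array left out, with a fit of 2 groups, with the mean over probe sets, without the variance trend, with unadjusted p and a fold of 2, on deposited values with no scaling or scaled to their 75th percentile, with intensities under 32 raised to it, and with the dimmest 40% of probe sets dropped.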

Additional observations from a re-analysis of the deposited data

Results flagged for a closer look

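The 10 helicases with the largest differences between groups A and B were taken from those past an adjusted p of 0.05 by limma. In 9 of them the mean of group A lay below that of the reference group and the mean of group B above it. Choosing the largest differences favours genes with the 2 groups on opposite sides, and the share among all genes was not computed. The log2 difference of group A from group B was -3.17 for Ddx3x-ps1, -2.22 for Dhx36, -1.97 for Ddx52, -1.83 for Ddx46 and -1.76 for Dhx40. It was -1.63 for Ddx10, -1.54 for Ddx50, -1.44 for Dhx15 and -1.07 for Ddx3x. In all 9 group A was below group D at an adjusted p under 0.05. None of the 9 passed in group B against group D with all arrays. On values as deposited the means of groups A and B lay on opposite sides of the reference in 2 of the 9, Dhx36 and Dhx40, and on the same side in 7, while centring on the 75th percentile left 9 on opposite sides.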

How the results depend on the processing

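The 15 helicases given array by array had 31 named differences, and over 651 values under the alternatives 621 kept their direction and side of the threshold, 20 lost the threshold, 7 gained it and 3 reversed. Ddx42 reversed in group B against group D on values as deposited (-0.50) and without D replicate 1 (leaving out arrays gave -0.03 to 0.10), and in group C against group D on values as deposited (-0.49). Its difference between groups A and D and that of Ddx3x were lost in several settings, with adjusted p up to 0.973 for Ddx42 with the mean over probe sets and up to 0.111 for Ddx3x in a fit of 2 groups. Ddx50 was lost with the mean over probe sets (-0.22 against group D and -0.13 against group B), and Ddx5 and Dhx34 on values as deposited (adjusted p 0.0629 and 0.0715). Ddx3x was lost there against group B (adjusted p 0.33).

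On values as deposited 0 helicases were higher in group A than in group D (1.84% of all genes), 14 were lower in group C than in group D (35.0% of all genes) and 9 were lower in group A than in group B (6.06% of all genes). With no variance trend, and in a fit of 2 groups, 1 was higher in group A than in group D, and the share of all genes was not computed. At an unadjusted p under 0.05 with a fold of 2, 10 were lower and 1 higher in group A against group D (6.64% and 4.15% of all genes), 12 lower and 1 higher against group B (8.54% and 11.3%), and each gavage group had 1 helicase higher than the reference (1.39% of all genes in group B and 1.65% in group C). With 1 array left out, the counts against group D ranged from 16 to 18 lower and 1 to 4 higher in group A, from 0 to 4 lower and 0 to 11 higher in group B, and from 0 to 2 lower and 0 to 10 higher in group C. Against group B they were 18 to 21 lower and 4 to 9 higher in group A, and between groups B and C 0 throughout. The upper ends in groups B and C came without D replicate 3. With an array left out, the share of all genes was computed only against group D without D replicate 3. The other counts are therefore not a result about the helicases. The causes were not tested.

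With a replicate block 17 helicases were lower and 2 higher in group A against group D, and 20 lower and 8 higher against group B. The share of all genes with the block was not computed. Deviations of same-numbered arrays correlated weakly or not at all (correlations from -0.0152 to 0.0826 over 18 pairs). Even so, 9 of 12 arrays correlated best with their own number, so a weak link by number may exist. Signal over background limited the second probe sets of Ddx28 and Ddx50, which were at or below background in 1 array each.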
